A study of Mus musculus with 4 samples.

Results

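The genes of the p53 pathway and the inhibitors of cyclin-dependent kinases were followed in cultured mouse aortic smooth muscle cells with and without LAMP-2A, the lysosomal receptor of chaperone-mediated autophagy. The group held 9 genes, Trp53, Mdm2, Cdkn1a, Cdkn1b, Cdkn2a, Cdkn2b, Cdkn2c, Ccng1 and Gadd45a. They were taken by name, through every non-control probe whose RefSeq accession on the array belonged to one of these symbols. This gave 12 probes, with 2 each for Cdkn1a, Cdkn2a and Cdkn2b, out of 21367 genes with a named probe. All 12 probes were well above background on all 4 arrays.

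The 4 groups were wild type (WT) and LAMP-2AKO (L2AKO) cells of strain C57BL/6J, each kept as control or given LDL, and each group was 1 array of pooled RNA. Cells came from 5 aortas and were used at passages 12 to 16. Confluent cells of every group spent 24 h in DMEM with 5% lipoprotein-deficient serum, and the LDL groups received LDL at 150 µg/ml of cholesterol together with bovine lipoprotein lipase at 0.1 U/ml. Whether lipase was also added to controls could not be read from the labels. With 1 array a group, no replicate error or p-value exists for any difference, and a genotype difference compares 1 pool of RNA with another. Differences are counted at 1.5-fold, beside the share of all measured genes past that fold.

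p53, encoded by Trp53, is a transcription factor that is held at low levels by the ubiquitin ligase Mdm2 and is activated mainly through the stability of its protein rather than through its messenger RNA. Once active it raises Mdm2 itself, Cdkn1a, Ccng1 and Gadd45a, and p21, the product of Cdkn1a, stops the cell cycle. The INK4 inhibitors Cdkn2a, Cdkn2b and Cdkn2c act on the kinases that pair with D-type cyclins and thereby keep RB active, and p27, from Cdkn1b, blocks cyclin E complexes. In the artery wall these inhibitors are known as brakes on smooth muscle growth, and Cdkn2a and Cdkn2b lie side by side in a region tied to coronary disease in humans.

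The promoter windows of 4 members are shown because p53 acts on these genes by binding DNA, and because 3 of them (Cdkn1a, Mdm2 and Gadd45a) differed most between the genotypes while Ccng1 did not. Each runs from 250 bases before to 50 bases after an annotated start, from RefSeq on GRCm38.p6, and capitals mark matches on either strand to the motif GGGCGG (known as a GC box), to the motif written CCAAT, to the octamer motif, which is ATTTGCAT, or to the p53 half-site, the short element of which a full p53 site holds a pair.
Cdkn1a, upstream start, chr17:29090729-29091028, plus strand: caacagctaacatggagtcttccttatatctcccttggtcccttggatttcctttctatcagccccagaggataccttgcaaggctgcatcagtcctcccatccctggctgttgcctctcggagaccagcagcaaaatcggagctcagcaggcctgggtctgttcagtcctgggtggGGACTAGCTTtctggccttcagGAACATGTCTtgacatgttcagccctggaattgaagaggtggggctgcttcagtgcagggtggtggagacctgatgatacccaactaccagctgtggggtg
Mdm2, chr10:117710709-117711008, minus strand: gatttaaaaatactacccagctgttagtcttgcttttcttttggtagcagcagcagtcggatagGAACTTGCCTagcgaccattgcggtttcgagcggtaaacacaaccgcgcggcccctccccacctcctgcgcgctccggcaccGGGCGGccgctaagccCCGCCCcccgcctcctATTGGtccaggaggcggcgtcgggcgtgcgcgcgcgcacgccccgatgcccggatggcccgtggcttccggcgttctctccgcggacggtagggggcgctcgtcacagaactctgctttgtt
Gadd45a, chr6:67037358-67037657, minus strand: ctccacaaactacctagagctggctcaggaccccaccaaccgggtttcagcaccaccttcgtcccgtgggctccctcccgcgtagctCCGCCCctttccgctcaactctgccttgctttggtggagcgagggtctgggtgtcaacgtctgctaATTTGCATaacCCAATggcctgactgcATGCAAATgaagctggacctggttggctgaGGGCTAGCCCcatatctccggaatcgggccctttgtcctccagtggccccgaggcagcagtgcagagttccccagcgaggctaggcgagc
Ccng1, chr11:40755237-40755536, minus strand: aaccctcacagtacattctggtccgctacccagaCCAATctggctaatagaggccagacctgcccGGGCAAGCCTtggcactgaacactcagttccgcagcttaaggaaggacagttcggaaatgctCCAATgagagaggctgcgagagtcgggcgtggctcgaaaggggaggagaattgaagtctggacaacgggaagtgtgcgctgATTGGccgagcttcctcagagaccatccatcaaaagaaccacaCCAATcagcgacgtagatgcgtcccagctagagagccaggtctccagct

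All 9 genes matched the promoter table, with 12 windows. A p53 half-site was found in 5 of the 12, those of Trp53, Mdm2, Ccng1, Gadd45a and the upstream start of Cdkn1a, and in 8.36% of all 32851 windows. The Cdkn1a window held 2 of them, beginning at -73 and -51 from the start, where base 0 is the first transcribed base. Such a pair, with at most 13 bases between, was found in 0.0731% of all windows. The octamer was found in the Gadd45a window, at -97 and -70 with a CCAAT box between them at -86, and in 1.74% of all windows. CCAAT boxes were in 7 of the 12 windows (37.4% of all) and GC boxes in 8 (35.7% of all). Matches are a description of letters within these windows, so p53 sites outside them are not covered, and binding was not measured.

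**Figure D1:**
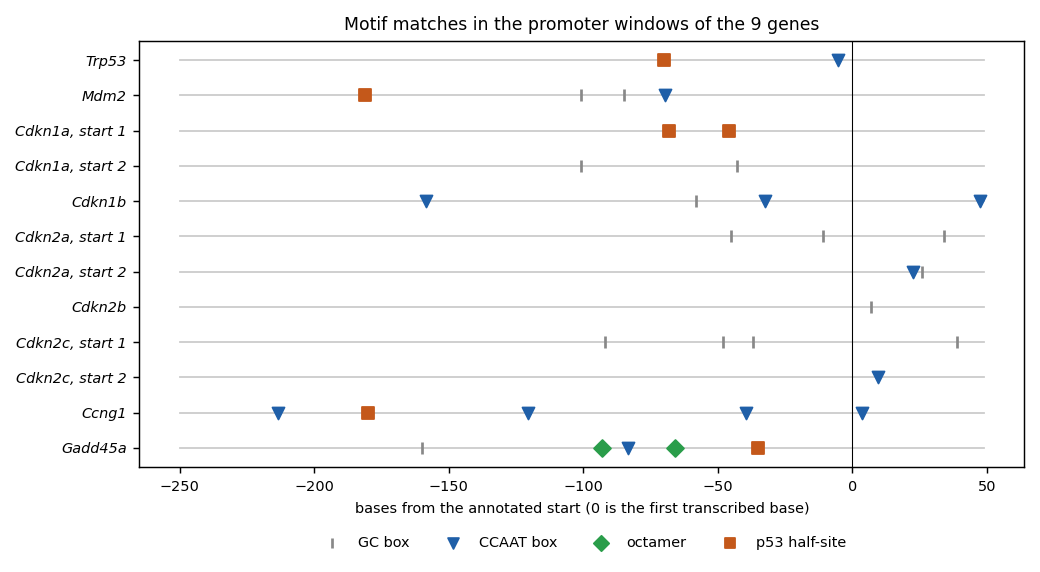
Motif matches in the 12 promoter windows of the 9 genes, by distance in bases from the annotated start (0 is the first transcribed base). Each symbol is the middle of a match. p53 half-sites lie in the windows of Trp53, Mdm2, Cdkn1a (start 1), Ccng1 and Gadd45a, and the 2 octamers lie in that of Gadd45a.

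The arrays were comparable in depth of signal. The 75th percentile of the processed signal lay between 318.8 and 433.8, from 47.2% to 52.0% of probes were well above background, and saturation affected 0 spots. A second slide carried the L2AKO LDL array, where 7 of 8 spike-in controls fell beyond the range seen on slide 1 and deviated from its mean by -1.16 to 0.62 log2 units. Slide and group cannot be told apart in any comparison with that array, so the genotypes without LDL and the LDL response of WT are the comparisons within 1 slide. Of 2 probes for the targeted gene Lamp2, one read 3.68 in WT control and 2.30 in L2AKO control and the other 6.29 and 6.33, and the sources used here do not say which lies in the deleted part. Among 12 smooth muscle markers 7 were above background on all arrays, including Acta2, while Myh11, Lmod1, Myocd and Des were on none.

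The first question was how the genotypes differed without LDL. Cdkn1a and Mdm2 were lower in L2AKO, Gadd45a was higher, and the other 6 genes lay within 1.5-fold. That is 2 of 9 lower, where 16.6% of 12593 measured genes were lower by as much, and 1 of 9 higher, where 15.2% were, so the counts alone did not set these genes apart from the rest. The median of the 9 differences was 0.03 in log2 units, against -0.01 for all measured genes. At 2-fold, Gadd45a was the 1 gene higher, against 7.56% of measured genes, and Mdm2 the 1 gene lower, against 8.21%.

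Trp53 itself lay within a narrow range. Its normalised log2 value, the log2 processed signal minus the 75th percentile of the array, was -0.73 without and -0.68 with LDL in WT, and -0.85 without and -0.64 with LDL in L2AKO. The genotypes overlapped. The probe had 2 spots an array, with SDs of 0.01 to 0.13, which cover spread within an array only. Without LDL the genotypes differed by -0.12 and with LDL by 0.05.

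Mdm2, the ligase that marks p53 for destruction, read 7.10 and 6.99 on the WT arrays (control, then LDL) and 6.08 and 6.14 on the L2AKO arrays. Both L2AKO arrays were below both WT arrays. The share of all genes ordered by genotype in this way was not counted, here or for the genes below. The order alone therefore does not set a gene apart. Mdm2 was 2.03-fold lower in L2AKO without LDL (log2 difference -1.02) and 1.80-fold lower with LDL (-0.84). Of all measured genes, 7.93% were at least as far below WT without LDL and 13.3% with LDL. Within each genotype the values with and without LDL differed by -0.11 and 0.07, close to the 0.08 that 2 spots on an array differ by (SD), which covers technical spread within an array only.

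Cdkn1a, whose product p21 stops the cycle at its G1 phase, was also lower on both L2AKO arrays. Its brighter probe read 4.73 in untreated WT, 4.55 in LDL-treated WT, 3.76 in untreated L2AKO and 3.62 in LDL-treated L2AKO. This probe was printed 10 times on every array, and the SD over these spots was between 0.03 and 0.06. The spots of an array are copies of 1 probe on 1 pool of RNA. They cover spread within an array only and are not replicates of a genotype. L2AKO was 1.96-fold lower without LDL (-0.97) and 1.91-fold lower with LDL (-0.93), and no spot of an L2AKO array reached a spot of a WT array. Among measured genes, 8.60% were at least as far below WT without LDL and 11.5% with LDL. The dimmer probe, designed on another transcript, read 0.25, 0.17, -0.47 and -0.44 in the same order. It too was lower on both L2AKO arrays, by 1.65-fold without LDL and 1.54-fold with LDL.

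Gadd45a, a stress sensor that acts in DNA repair and growth arrest, went the opposite way. It read 0.77 without and 1.02 with LDL in WT, and 3.41 without and 3.34 with LDL in L2AKO. The genotypes lay far apart and the L2AKO arrays differed from each other by -0.07. Gadd45a was 6.23-fold higher in L2AKO without LDL (2.64) and 4.97-fold higher with LDL (2.31). Only 1.06% of measured genes were at least as far above WT without LDL, and 1.56% with LDL.

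Ccng1, a cyclin induced by p53 that recruits a phosphatase to Mdm2, did not follow Cdkn1a and Mdm2. It read 5.54 and 5.64 on the WT arrays (control, then LDL) and 5.57 and 5.42 on the L2AKO arrays. The genotypes overlapped, with log2 differences of 0.03 without LDL and -0.22 with LDL.

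The brightest probes of the remaining inhibitors lay within 1.5-fold between the genotypes, while the second probe of Cdkn2b passed it. Cdkn1b, which encodes p27, read 4.84 in untreated WT, 4.88 in LDL-treated WT, 5.13 in untreated L2AKO and 5.22 in LDL-treated L2AKO. Both L2AKO arrays were above both WT arrays, by 1.22-fold without LDL and 1.27-fold with LDL, short of the 1.5-fold mark. How many of all genes were ordered this way was not counted, so the order alone does not set a gene apart. Cdkn2b, which encodes p15, was 0.46 higher in L2AKO without LDL and 0.28 with LDL on its brighter probe. Its dimmer probe was 1.54-fold higher without LDL (0.63) and 1.66-fold higher with LDL (0.73), with both L2AKO arrays above both WT arrays. Cdkn2a differed by 0.10 and -0.14 on its 2 probes, and Cdkn2c by -0.14.

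**Figure D2:**
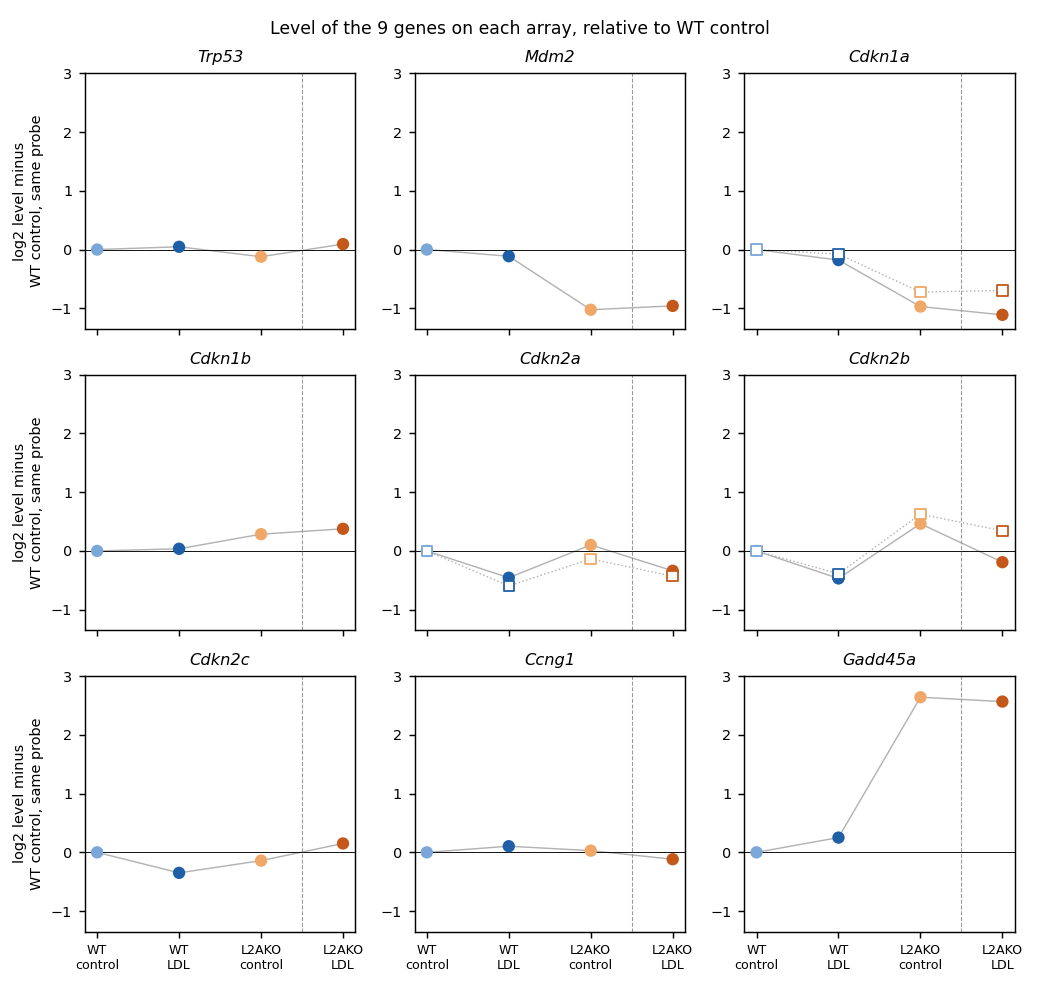
Normalised log2 level of each gene on the 4 arrays minus its level on the WT control array (vertical axis, log2 units). Filled circles are the brightest probe of a gene, open squares its other probe, and the dashed line separates the 2 slides. Mdm2 and Cdkn1a lie lower on both L2AKO arrays, Gadd45a lies 2.64 and Cdkn2b 0.46 above WT control on the L2AKO control array, and Trp53 and Ccng1 stay near 0.

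With LDL on both genotypes, the same 3 genes passed 1.5-fold, on the same sides. Mdm2 and Cdkn1a made 2 of 9 lower, against 20.5% of 12934 measured genes, and Gadd45a made 1 of 9 higher, against 16.9%. The median of the 9 differences was 0.12, against -0.05 for all genes. At 2-fold, 1 of 9 was higher (8.3% of all) and 0 of 9 lower (10.4% of all). Cdkn2c, which encodes p18, was 0.50 higher in L2AKO here. These arrays lay on different slides, and they are not the arrays of the comparison without LDL.

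The next question was how each genotype responded to LDL. In WT, 0 of the 9 genes passed 1.5-fold in either direction on the brightest probe, where 1.25% of 12977 measured genes were higher and 2.46% lower by as much. At 2-fold these shares were 0.247% and 1.02%, again with 0 of 9 genes. The lowest values were those of the INK4 genes, Cdkn2b at -0.47, Cdkn2a at -0.46 and Cdkn2c at -0.35, while the other 6 genes lay between -0.18 and 0.25. The median of the 9 was -0.11 and that of all genes -0.05.

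Cdkn2a encodes the kinase inhibitor p16 and, from another reading frame, ARF, which holds Mdm2 away from p53. Its brighter probe read 4.68 without and 4.22 with LDL in WT, and 4.78 without and 4.34 with LDL in L2AKO. Both LDL arrays were below both control arrays, by 1.37-fold in WT and 1.36-fold in L2AKO. The share of all genes ordered by LDL in this way was not counted either. The dimmer probe read 0.61, 0.01, 0.47 and 0.18 in the same order, also with both LDL arrays below both controls. It was lower with LDL by 1.51-fold in WT, past the mark that the brighter probe did not reach, and by 1.22-fold in L2AKO. Both probes carry the same transcript on the array, and p16 and ARF could not be told apart.

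Cdkn2b read 3.78 and 3.31 on the WT arrays (control, then LDL) and 4.24 and 3.59 on the L2AKO arrays on its brighter probe. It was lower with LDL by 1.38-fold in WT and 1.57-fold in L2AKO. The dimmer probe read 0.21, -0.18, 0.84 and 0.55, lower with LDL by 1.31-fold and 1.22-fold. The difference was on the same side on both probes in both genotypes, yet only the brighter probe in L2AKO passed 1.5-fold. Of all measured genes, 3.87% were at least as far below control in WT and 3.64% in L2AKO.

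In L2AKO, Cdkn2b was thus 1 of 9 genes lower with LDL, against 4.55% of 13008 measured genes, and 0 of 9 were higher, against 3.34%. The median of the 9 was -0.07 and that of all genes -0.08. At 2-fold 0 of 9 were past the mark, against 0.93% higher and 1.33% lower. Trp53 was 0.21 higher with LDL in L2AKO and Mdm2, Cdkn1a and Gadd45a lay between -0.14 and 0.07. These 2 arrays lay on different slides.

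Last, the responses to LDL were set against each other, L2AKO minus WT. Cdkn2c was 1 of 9 genes past 1.5-fold on the higher side, against 4.77% of 12491 genes, and 0 of 9 were on the lower side, against 3.99%. At 2-fold there were 0 of 9 on either side, against 1.39% and 0.721%. Cdkn2c read 1.76 in untreated WT, 1.41 in LDL-treated WT, 1.62 in untreated L2AKO and 1.91 in LDL-treated L2AKO. It was thus lower with LDL in WT (-0.35) and higher in L2AKO (0.29), a difference of 0.64 that uses all 4 arrays and both slides. The other 8 genes lay between -0.33 and 0.18.

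**Figure D3:**
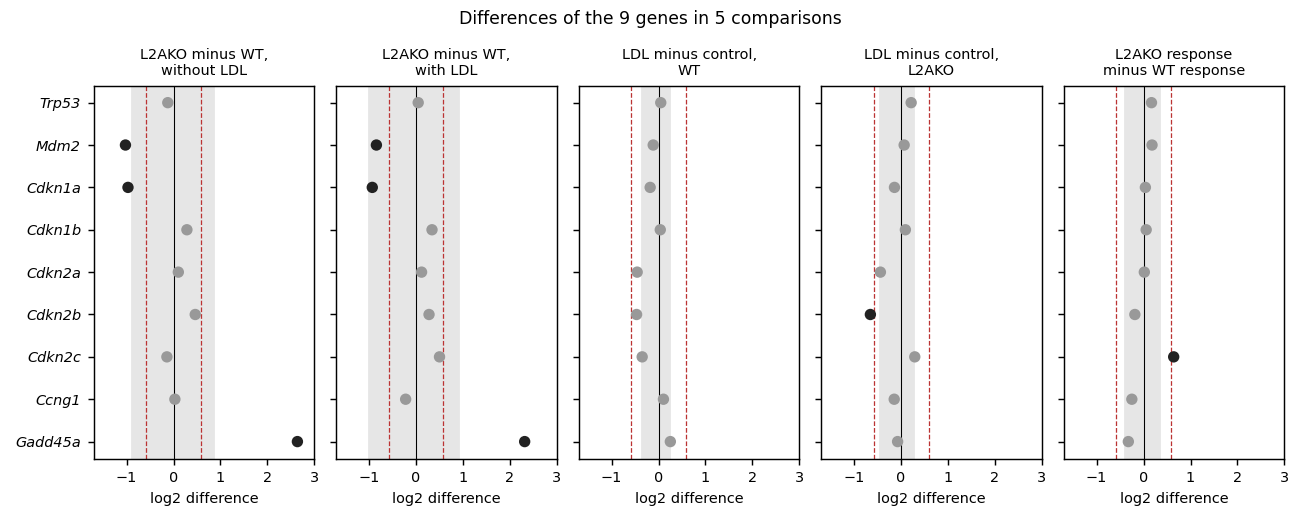
Log2 difference of each of the 9 genes (horizontal axis) in the 5 comparisons. Dark points are past 1.5-fold (red dashed lines), and the grey band is the median of all measured genes plus and minus 1 SD across genes. Gadd45a lies at 2.64 and 2.31 between the genotypes, Cdkn2a and Cdkn2b lie below 0 in both LDL responses, and Cdkn2c is the dark point in the difference of responses.

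The other genes that p53 is known to switch on were lower in L2AKO more often than higher. Of 35 listed targets outside the 9 genes, 34 were measured without LDL, and 16 were lower and 1 higher at 1.5-fold. Their median was -0.47, against -0.01 for all genes, of which 16.6% were lower by as much. With LDL, 18 of 35 were lower, against 20.5% of all genes, and 5 higher, a share near the 16.9% of all genes, with a median of -0.69 against -0.05. Several of the listed genes also answer to other factors, and Ccnd1 is on the cyclin list as well.

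Members of this list with a role in cell death differed among themselves. Pmaip1, which encodes the BH3-only protein NOXA, read 4.64 without and 4.48 with LDL in WT, and 2.27 without and 2.06 with LDL in L2AKO, and both L2AKO values were below both WT values. Bax, which opens the mitochondrial outer membrane, read 6.78, 6.57, 5.78 and 5.62. The other genes of this paragraph, save Xpc, were chosen after their values were seen. Fas, a death receptor, differed by -0.99 without LDL and -1.63 with LDL, Bbc3, which encodes PUMA, by -0.78 and -1.21, and Pidd1, which encodes a scaffold for caspase-2, by -1.64 and -1.52. The death receptor gene Tnfrsf10b was within 1.5-fold, at -0.39 and -0.22, as were Ei24, at 0.16 and -0.21, and Trp53inp1, at 0.36 and 0.05. Apaf1, which builds the apoptosome, differed by -0.30 and -0.69. Targets with a role in DNA repair or nucleotide supply also went both ways. Without and with LDL, Xpc differed by 0.89 and 0.74, Ddb2 by 0.21 and 0.21, and Polk by -0.84 and -0.81. Polh differed by 0.18 and -1.02, and Rrm2b by 0.02 and 0.70.

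Perp (-8.00) and Trp53i11 (-4.65) had the largest differences on this list. Perp is also a protein of desmosomes, and of the 9 listed markers of mesothelial and epithelial cells 7 were measured. In L2AKO without LDL 5 were lower and 2 higher, beside 16.6% and 15.2% of all measured genes. Mesothelial markers went both ways, with Msln (-2.31) and Wt1 (-0.93) lower and Lrrn4 (3.40) and Upk3b (1.17) higher. The summed signal of the 9 markers, in units of the 75th percentile of the array, was 63.8 and 59.1 on the WT arrays and 19.8 and 23.1 on the L2AKO arrays. Their part in the values of Perp or of the other targets was not tested, and fewer cells of a type and less RNA per cell cannot be told apart in pooled RNA. Of 8 macrophage markers, Cd68, Csf1r, Itgam and Cd14 were above background on all arrays and the defining markers Ptprc, Adgre1 and Fcgr1 on none. Cd68 was higher in L2AKO, by 1.85 without LDL and 1.79 with LDL, while Cd14 was lower, at -0.63 and -0.86. Csf1r differed by 0.52 and 0.31, and Itgam by -0.16 and 0.83. The summed signal of the macrophage list was 37.8 and 32.7 on the WT arrays and 34.8 and 51.2 on the L2AKO arrays. Itgam, the brightest of this list, read 5.46 on the L2AKO LDL array, which lay on the second slide. Of 8 endothelial markers, Kdr and Vwf were above background on all arrays and Cdh5, Tek, Emcn, Tie1 and Cldn5 on none, with a summed signal of 4.53 to 5.75. The part of these cells in the results was not tested. Fibroblast markers went both ways, 3 of 7 higher and 3 lower without LDL, beside 15.2% and 16.6% of all measured genes.

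**Figure D4:**
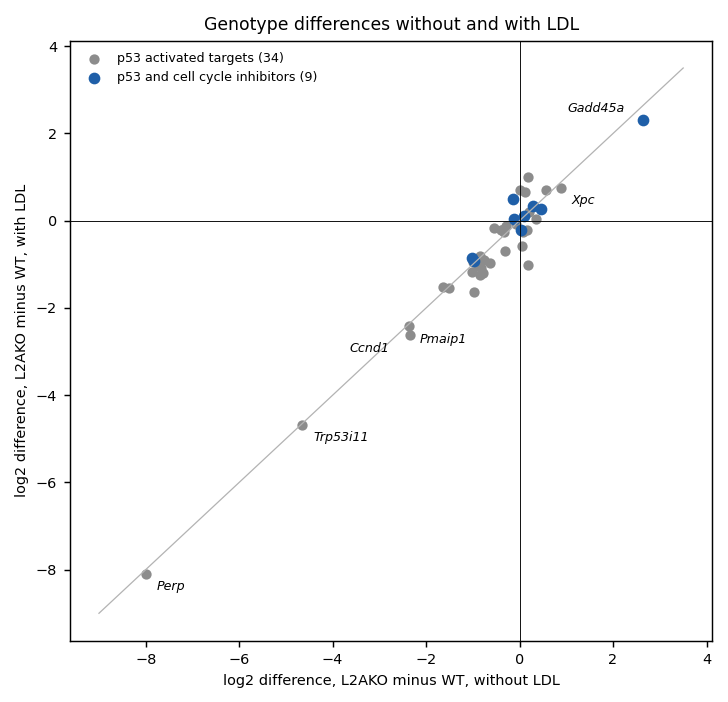
Log2 difference between L2AKO and WT without LDL (horizontal) and with LDL (vertical) for 34 p53 targets (grey) and the 9 genes (blue). Each point is a gene and the line marks equal differences. Perp, Trp53i11, Pmaip1 and Ccnd1 lie far below 0 on both axes and Gadd45a lies above 0 on both.

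Genes that regulate p53 varied less. Of 21 regulators and relatives 20 were measured, and 0 were past 1.5-fold between the genotypes without LDL, with a median of -0.02. Of all measured genes 15.2% were higher and 16.6% lower by as much. The next paragraphs name genes outside the naming rule where a count is small, and these were chosen after their values were seen. Mdm4, the partner of Mdm2, differed by 0.38 without LDL and 0.24 with LDL. With LDL the ribosomal protein gene Rpl5, whose product binds Mdm2, was the 1 gene past 1.5-fold, at 0.80. There 16.9% of all measured genes were higher and 20.5% lower. Chek1 was above background on no array.

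The families of the 9 genes did not move as blocks. Gadd45g, a relative of Gadd45a, was lower in L2AKO, at -1.88 without LDL and -2.18 with LDL, where Gadd45a was higher, and Gadd45b stayed at -0.08 and -0.06. Cdkn1c, which encodes the p57 inhibitor, read 1.38 in WT control and was not above background in L2AKO control, at least 49.9-fold lower. With LDL Cdkn1c read 1.36 in WT and -3.45 in L2AKO. Cdkn2d, which encodes the p19 INK4 inhibitor, was lower by 1.17 and 1.26 log2 units (-1.17 and -1.26). Ccng2 differed by 0.07 and -0.54, and Ccni by 0.21 and 0.23.

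Downstream, genes known to be repressed through p21, the DREAM complex and RB were lower in L2AKO, where Cdkn1a was lower too. Of 31 listed genes 27 were measured, and all 27 were lower by 1.5-fold in both genotype comparisons, against 16.6% of all measured genes without LDL and 20.5% with LDL, with a median of -2.62 without LDL and -2.35 with LDL. Their summed signal was 305.5 and 277.0 on the WT arrays and 76.7 and 74.6 on the L2AKO arrays, and 6 of 6 further probes of these 27 genes were lower by 1.5-fold without LDL. Cenpf, Ttk and Ccne2 were above background on no array and Aurkb on 1. In the LDL comparisons their medians were -0.12 in WT and 0.07 in L2AKO. These genes mark dividing cells, and their part in the levels of the inhibitors was not tested.

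The targets of the inhibitors on the RB pathway were lower for 7 of 17 measured genes and higher for 2 without LDL, with a median of -0.42, beside 16.6% lower and 15.2% higher of all measured genes. The repressive factors E2f8 (-3.64) and E2f7 (-2.99) and the activator E2f2 (-2.62) were lowest, and E2f6 (0.72) and E2f5 (0.67) were higher. Cyclin D1, Ccnd1, read 6.83 and 6.70 on the WT arrays (control, then LDL) and 4.50 and 4.07 on the L2AKO arrays, whereas Ccnd2 and Ccnd3 differed by -0.25 and -0.21 without LDL. Cdk4, the kinase bound by the INK4 proteins, differed by -0.42. Rb1 itself differed by -0.06.

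The p27 protein is removed through the ubiquitin ligase that contains Skp2 and its cofactor Cks1b. Of 12 measured genes of this route, 4 were lower and 1 higher in L2AKO without LDL, beside 16.6% lower and 15.2% higher of all measured genes, with a median of -0.50. Cks2 (-2.33), Ccne1 (-1.50) and Cks1b (-1.06) were lowest, Skp2 was at -0.70, and the scaffold Cul1 was 0.62 higher.

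For the locus of Cdkn2a and Cdkn2b on mouse chromosome 4, the listed regulators went both ways, with 4 of 19 higher and 4 lower without LDL and a median of 0.05, near the shares of all measured genes (15.2% higher and 16.6% lower). Tbx3 (2.36) and Twist1 (1.76), known as repressors of the locus, and Ets1 (0.75) were higher, and Id1 (-2.53), Ets2 (-0.98) and the Polycomb gene Cbx2 (-0.62) were lower. The other probe of Ets1 was higher too but did not pass 1.5-fold, and with LDL Ets1 differed by -0.04. Bmi1, a Polycomb repressor of the locus, differed by 0.13 without LDL and 0.06 with LDL. With LDL in WT, where Cdkn2a and Cdkn2b were lowest of the 9 genes, 0 of these 19 regulators passed 1.5-fold. Of all measured genes 1.25% were higher and 2.46% lower by as much, so the 0 does not set the regulators apart. With LDL in L2AKO, 1 of 20 was higher and 0 lower, beside 3.34% and 4.55% of all measured genes. This was the Polycomb gene Cbx7, at -3.82 without LDL and -2.00 with LDL, on different slides. The value without LDL was near the lowest value above background (-4.33), and Cbx7 was not above background on the WT arrays.

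Other genes of the same chromosome region were compared with Cdkn2a and Cdkn2b. Of 9 such genes 6 were measured, and 0 passed 1.5-fold without LDL between the genotypes, beside 15.2% higher and 16.6% lower of all measured genes. With LDL 1 of 6 was lower, Focad at -0.67, and 0 were higher, beside 20.5% and 16.9% of all measured genes. In WT the LDL differences of these 6 genes lay between -0.16 for Focad and 0.02 for Mllt3. That is closer to 0 than -0.46 for Cdkn2a and -0.47 for Cdkn2b. Mtap, the adjoining gene, differed by -0.08 in WT and 0.08 in L2AKO, Klhl9 by 0.01 and -0.19, Tusc1 by -0.09 and 0.13, and Ifna1 by -0.08 and -0.25. Focad was at -0.43 in L2AKO, near the -0.44 of Cdkn2a. Dmrta1, Elavl2 and Ifnb1 were above background on no array.

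Smaller lists completed the picture. Of 8 measured FOXO, SMAD and KLF regulators of the inhibitors, Egr1 was the 1 past 1.5-fold without LDL, at 1.26, where 15.2% of all measured genes were higher. Of 13 measured genes used as marks of senescence, 3 were higher and 4 lower, with a median of -0.10, beside 15.2% and 16.6% of all measured genes. Igfbp3 (3.12), Il6 (1.32) and the collagenase gene Mmp13 (1.14) were higher without LDL, and Hmgb2 (-1.53), the p53 target Gdf15 (-1.50) and Cxcl1 (-1.17) were lower. With LDL Il6 was at 0.25 and Mmp13 at 0.21, and 2 of 13 were higher and 5 lower, beside 16.9% and 20.5% of all measured genes. Lmnb1, whose loss accompanies senescence, differed by -0.20 without LDL and -0.11 with LDL.

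**Figure D5:**
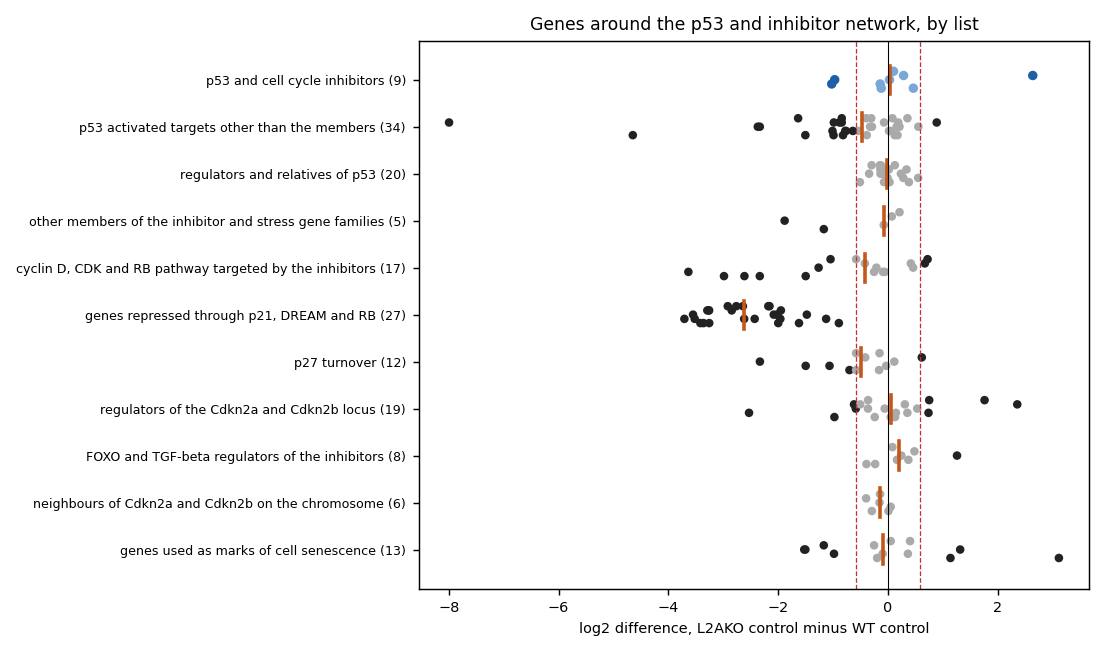
Log2 difference between L2AKO control and WT control for the measured genes of each list (points), with list medians in orange and the number of genes in brackets. Dark points are past 1.5-fold (red dashed lines). The 27 genes repressed through p21, DREAM and RB all lie to the left, the 34 p53 targets have a median of -0.47, and the 20 regulators of p53 stay within the lines.

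For the 3 members that ranged over at least 1 log2 unit, the genes with the most similar levels were sought among 12490 others above background on all 4 arrays. Likeness was the root mean square difference of the 4 values after subtraction of each gene's mean, which with 4 arrays is a description. Closest to Cdkn1a were S100a13 (0.013), Bax (0.018) and 2310022A10Rik (0.018). Closest to Mdm2 were Kantr (0.014), Fam3a (0.019) and Snrpa1 (0.021). Closest to Gadd45a were Dzank1 (0.049), Adam23 (0.059) and Zmynd12 (0.074).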

How the data were processed

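The deposited scanner files held spot intensity on a linear scale, read with Agilent Feature Extraction 10.7.3.1 and already background-subtracted, per the file headers. A second table of linear intensity was deposited by the authors, whose scaling between arrays stays unknown (RMA and oligo are named in the submitters' processing notes).

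Control spots and outlier spots were left out, log2 values of a probe's spots were averaged (55679 probes), and the 75th percentile of each array was subtracted. A probe was named through its RefSeq accession in a gene table of GRCm38.p6, while the array design names another build, so only promoter windows have coordinates. Of these probes 28330 matched 1 gene. The brightest probe on average stood for a gene, which counted as measured when that probe exceeded background on each array of the comparison (the well-above-background call of the scanner software). A gene bright on 1 side was given as a lower bound, its value over the higher of the lowest well-above-background value and its own value on the dim array.

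The members, the 10 gene lists and the 6 marker lists were chosen with earlier results of these data known. Named were all members, up to 3 highest and 3 lowest genes of a list without LDL past 1.5-fold, all family and neighbour genes, and the 3 genes most alike in profile. No significance test was run, since each group had 1 array. The counting at 1.5-fold was tested on simulated data. The 10 alternatives cover scaling, background correction, the deposited values, filters on dim probes, the mean over probes, and 2-fold. Of 399 probes printed 10 times, the median SD was at most 0.055 in log2 units. Calculations ran in Python 3.11.15 (pandas 2.3.3, numpy 2.4.6, matplotlib 3.10.9) and, for normexp and quantile normalisation, in limma 3.58.1 under R 4.3.3.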

Additional observations from a re-analysis of the deposited data

How the results depend on the processing

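Between the genotypes, Cdkn1a, Mdm2 and Gadd45a stayed past 1.5-fold on their side in all 10 settings with that threshold, without and with LDL. Without LDL their log2 differences ranged from -0.97 to -0.85 for Cdkn1a, from -1.02 to -0.94 for Mdm2 and from 2.57 to 2.73 for Gadd45a. No named gene past 1.5-fold changed sign under any setting run. Some named genes of the lists fell short of 1.5-fold without LDL, among them E2f5 (0.56) and Cul1 (0.57) after normexp. Cbx2 also fell short, at -0.50 after normexp, -0.53 under median scaling and -0.51 in the deposited values. At 2-fold, the count of lower members fell from 2 to 1 without LDL and from 2 to 0 with LDL, Cdkn2b (L2AKO, LDL against control) and Cdkn2c (difference of responses) both gave 0, and the p53 targets gave 7 lower and 0 higher without LDL (8.21% and 7.56% of all genes) and 13 lower and 1 higher with LDL (10.4% and 8.3% of all genes). Median scaling shifted the all-gene median with LDL from -0.05 to 0.15 and made 2 members higher there, Gadd45a and Cdkn2c. The call of Cdkn2b in L2AKO was lost (0 lower) under median scaling, scaling over probes above background on all arrays, quantile normalisation and the mean over probes, with values between -0.65 and -0.47 in all settings. The call of Cdkn2c in the difference of responses was lost (0 higher) after normexp, with values between 0.57 and 0.75. Higher p53 targets without LDL numbered 2 in place of 1 under median scaling, scaling over probes above background, quantile normalisation, normexp and the deposited values. These settings were applied to the p53 targets after the data were seen. The causes were not tested. No paired analysis was possible because each group had 1 array, so that no group held a second replicate number. Depth was not the limit for the 9 genes, all above background, and the number of arrays was.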
